A study of Mus musculus with 6 samples.

Results

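The 10 genes described are Ifit1, Ifit2, Ifit3, Ifit3b, Mx1, Mx2, Rsad2, Cmpk2, Eif2ak2 and Bst2, a set of interferon-induced antiviral effectors among the 54532 genes of the deposited expression table. They were taken by gene symbol, and all 10 were found. They were chosen with it known that they were lower in one group, so their difference between the groups is a description: values, fold changes and standard errors are given, no p-value is, and the calls made on them in the fit across all genes support nothing. Messenger RNA, selected by its poly-A tail, was sequenced in 6 libraries. They were made from cells that the labels call bone marrow-derived macrophages (BMDMs) and the study's methods monocytes, taken from the marrow of C57BL/6 mice aged 6 to 8 weeks, after co-culture with ID8, a mouse ovarian cancer line. In 3 libraries (cisplatin) the ID8 cells had first been exposed to 40 µM cisplatin, which damages DNA by crosslinking it, and in 3 libraries (PBS) to phosphate-buffered saline. All 6 libraries thus came from co-cultures with tumour cells, and no library of BMDMs alone was analysed here. The labels do not say whether the libraries of a group came from separate mice or cultures, so the spread between them may be technical.

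Interferons bind receptors at the cell surface, and Janus kinases then activate STAT proteins, which join IRF9 to form a complex that enters the nucleus. That complex binds a DNA element, the interferon-stimulated response element (ISRE), in front of many genes whose products act against viruses. Macrophages hold a low level of such products at rest and raise it strongly when they sense nucleic acids or interferon. The IFIT proteins bind viral RNA and hinder its translation. RSAD2 (viperin) makes a chain-terminating nucleotide, and CMPK2 is a mitochondrial kinase that makes the pyrimidine nucleotides it draws on. EIF2AK2 (PKR) stops translation when it binds double-stranded RNA, the MX proteins are dynamin-like GTPases that trap viral particles, and BST2 (tetherin) holds budding virions at the cell surface.

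Promoters were read from RefSeq (GRCm38.p6), from 250 bases before to 50 bases after each transcription start. A table entry was found for 8 of the 10 genes, all but Mx1 and Mx2. The letters GAAANNGAAA, the core of the ISRE, were searched on both strands, overlapping matches included. They occurred in 6 of the 8 promoters, against 3.44% of all 32851 promoters of that length, and against 3.42% of tested genes (1 promoter a gene). Among genes called lower with cisplatin the share was 6.69%, and among those called higher 2.97%. The stretches that hold matches upstream of the start are shown so that the matches of Ifit1, the near-identical Ifit3 and Ifit3b, Rsad2 and Bst2 can be compared. Each reads 5′ to 3′ on the gene's strand, with the matches in capitals. A match on the opposite strand reads TTTCNNTTTC. The coordinates are chr19:34640755-34640843 for Ifit1, chr19:34583343-34583446 for Ifit3 and chr19:34607739-34607842 for Ifit3b, all on the plus strand, and chr12:26456533-26456602 for Rsad2 and chr8:71537557-71537632 for Bst2, both on the minus strand.
Ifit1: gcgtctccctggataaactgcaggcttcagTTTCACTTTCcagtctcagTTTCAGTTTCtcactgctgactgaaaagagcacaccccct
Ifit3: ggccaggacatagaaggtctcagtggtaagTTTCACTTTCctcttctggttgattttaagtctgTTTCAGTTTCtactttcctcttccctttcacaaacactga
Ifit3b: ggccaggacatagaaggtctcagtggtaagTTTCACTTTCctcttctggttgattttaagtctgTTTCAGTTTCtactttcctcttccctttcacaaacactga
Rsad2: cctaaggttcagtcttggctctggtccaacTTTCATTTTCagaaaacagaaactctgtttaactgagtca
Bst2: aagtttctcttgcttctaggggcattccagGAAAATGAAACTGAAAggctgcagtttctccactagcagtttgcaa

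Ifit1, Ifit3 and Ifit3b carried the same pair of matches, TTTCACTTTC followed by TTTCAGTTTC. The matches lay 9 bases apart in Ifit1 and 24 bases apart in Ifit3 and Ifit3b. Over the printed 104 bases Ifit3 and Ifit3b were identical, and over the 250 bases before their starts 216 of 218 aligned bases were the same (99.1%). Rsad2 held a single match, TTTCATTTTC, and Bst2 a pair of overlapping matches. In Eif2ak2 the match, GAAAACGAAA, lay after the start, at bases 19 to 28. The windows of Ifit2 and Cmpk2 did not hold these letters, which says nothing of sequence outside them. A second element, GAS (letters TTCNNNGAA, searched on both strands), is bound by STAT dimers. It was found in 3 of the 8 promoters, those of Ifit2, Eif2ak2 and Bst2, and in 8.30% of all promoters. In Bst2 it read TTCCAGGAA and overlapped the first ISRE match. These matches describe the letters of the promoters and were not tested as binding sites.

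Reads recovered from the deposited values summed to between 15776238 and 16396353 in the cisplatin libraries and to between 15907567 and 17924686 in the PBS libraries. Libraries of a group correlated with Pearson's r from 0.984 to 0.989 and those of different groups with r from 0.871 to 0.877, across 13441 tested genes. Mitochondrial transcripts took 1.96% to 2.22% of reads with cisplatin and 1.69% to 1.88% with PBS. All 12 macrophage markers listed (among them Adgre1, Csf1r and Lyz2) were detected. They summed to 4873 to 5059 FPKM (fragments per 1000 bases of gene and per 1000000 reads) with cisplatin and 2153 to 2197 FPKM with PBS.

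All 10 effector genes were lower in every cisplatin library than in every PBS library. Each passed the filter on low values in both groups, since their lowest value was 3.41 FPKM and the filter asked for 1 FPKM in 3 libraries. All 10 were called lower (limma on log2(FPKM + 1), with a Benjamini-Hochberg adjusted p below 0.05 and a log2 fold change that reached 1 in size), as were 11.3% of the 13441 genes tested, and 4.67% were called higher. By the adjusted p alone, 35.1% of tested genes were lower and 32.9% higher. Nothing is read from that count, because the genes were chosen with this difference known. Their median log2 fold change was -2.38, and that of all tested genes was -0.0011. All 10 lay apart between groups, and so did 37.2% of tested genes that were lower and 35.2% that were higher. FPKM is a level per length, so levels of different genes can be set side by side.

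**Figure D1:**
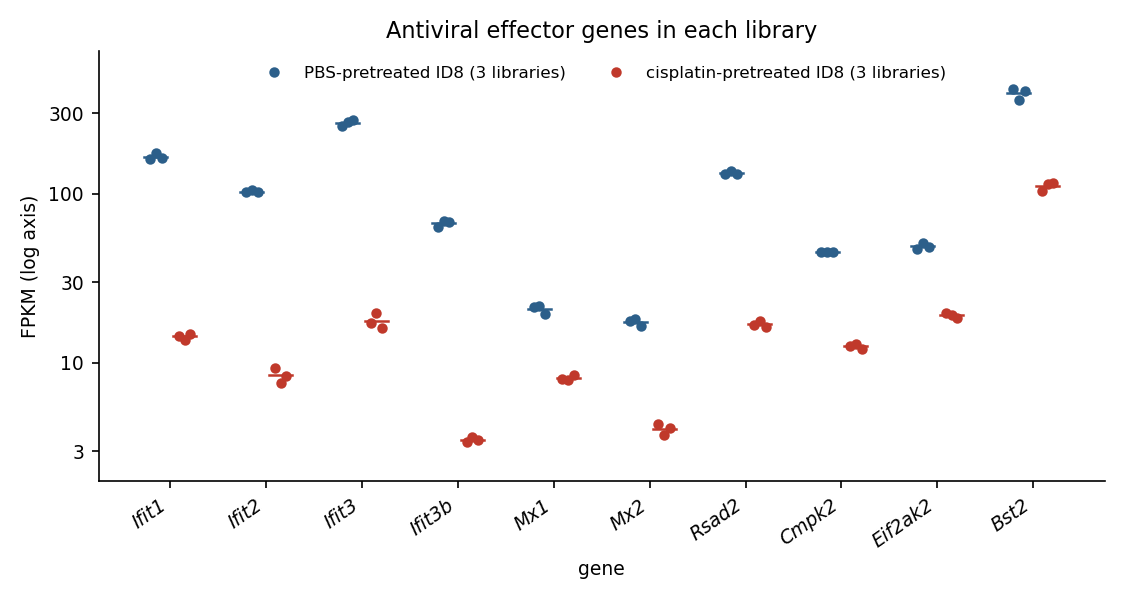
FPKM (log axis) of the 10 antiviral effector genes in each of 6 libraries, with a point per library and a bar at the group mean. Blue is co-culture with PBS-pretreated ID8 cells and red with cisplatin-pretreated ID8 cells (3 libraries each), and for every gene the red points lie below the blue ones, from Ifit3b at 3.41 FPKM to Bst2 at 417.8 FPKM.

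The IFIT genes, which encode tetratricopeptide-repeat proteins that bind foreign RNA, differed most. Ifit1 (ENSMUSG00000034459, chromosome 19, 34640871 to 34650009, plus strand) encodes the member that binds RNA caps lacking ribose methylation. It stood at 159.5, 174.9 and 162.2 FPKM in PBS replicates 1, 2 and 3, and at 14.4, 13.8 and 14.9 FPKM in cisplatin replicates 1, 2 and 3. The mean of 165.5 ± 8.22 FPKM with PBS was thus 11.5 times the 14.3 ± 0.557 FPKM with cisplatin (SD, n = 3 each). On the log2(FPKM + 1) scale the difference was -3.44 (SE 0.048), a scale that understates the change of low values.

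Ifit2 (ENSMUSG00000045932, chromosome 19, 34550694 to 34576419, plus strand) encodes a partner of IFIT1 and IFIT3 that binds AU-rich RNA. It stood at 102.2, 104.6 and 102.2 FPKM in the PBS libraries and at 9.37, 7.63 and 8.42 FPKM in the cisplatin libraries. The PBS values were close together, with a coefficient of variation of 1.32%, while the cisplatin values spread by 10.3%, where counting alone gives 4.25%. The PBS mean was 12.2 times the cisplatin mean (log2 fold change -3.46, SE 0.067).

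Ifit3 (ENSMUSG00000074896, chromosome 19, 34583531 to 34588731, plus strand) encodes an adaptor that stabilises IFIT1. It was the highest of the IFIT genes in PBS, at 253.0, 264.5 and 271.2 FPKM. In the cisplatin libraries it stood at 17.2, 19.9 and 16.1 FPKM, a spread of 10.9% against 4.41% from counting, and replicate 2 was the highest. The PBS mean was 14.8 times the cisplatin mean (log2 fold change -3.82, SE 0.074).

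Ifit3b (ENSMUSG00000062488, chromosome 19, 34607970 to 34613401, plus strand) is a close copy of Ifit3. Its levels were 63.7, 69.0 and 67.6 FPKM with PBS and 3.41, 3.65 and 3.51 FPKM with cisplatin. The cisplatin values rest on 116, 120 and 116 reads. The PBS mean was 18.9 times the cisplatin mean, the largest ratio of the 10 genes (log2 fold change -3.90, SE 0.047). Annotated transcripts of Ifit3 and Ifit3b were 98.0% identical over 1697 aligned bases, and 31.7% of the 100-base stretches of Ifit3 also occur in Ifit3b, so the split of reads between them is uncertain. With the reads of both summed, the log2 fold change was -3.90. For Ifit1, 3.29% of stretches occur in Ifit1bl2, and for Ifit2 none occur in another gene.

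Rsad2 (ENSMUSG00000020641, chromosome 12, 26442746 to 26456452, minus strand) stood at 130.8, 135.6 and 131.1 FPKM in the PBS libraries. In the cisplatin libraries it stood at 16.9, 17.6 and 16.2 FPKM. The group means of 132.5 ± 2.72 and 16.9 ± 0.701 FPKM differed by a factor of 7.83 (log2 fold change -2.90, SE 0.040). Cmpk2 (ENSMUSG00000020638, chromosome 12, 26469204 to 26479837, plus strand) lies beside it, and the genes point away from each other across 12752 bases. Its PBS values of 45.5, 45.0 and 45.3 FPKM were the tightest of the 10 genes, at a coefficient of variation of 0.584%, below the 1.81% that counting alone gives. With cisplatin it stood at 12.6, 13.0 and 12.1 FPKM, so the PBS mean was 3.61 times the cisplatin mean (log2 fold change -1.77, SE 0.038). Rsad2 was 2.93 ± 0.077 times the level of Cmpk2 in PBS libraries and 1.35 ± 0.011 times in cisplatin libraries, and the ratios did not overlap. The nearest tested genes outside the pair did not pass the test, with log2 fold changes of 0.090 for Rnf144a, 27492 bases from Rsad2 (limma adjusted p = 0.355), and 0.072 for Rps7, 2151017 bases from Cmpk2 (limma adjusted p = 0.0572).

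Eif2ak2 (ENSMUSG00000024079, chromosome 17, 78852564 to 78882573, minus strand) stood at 46.9, 51.4 and 48.8 FPKM with PBS and 19.8, 19.1 and 18.5 FPKM with cisplatin. The PBS mean was 2.56 times the cisplatin mean (log2 fold change -1.31, SE 0.047), among the smallest ratios of the set. Its nearest tested neighbours, Gpatch11 at 0.13 (limma adjusted p = 0.167) and Sult6b1 at -0.18 (limma adjusted p = 0.276), did not pass the test. Its gene body overlaps Gm26637, whose log2 fold change was -0.43, and 1.49% of its stretches are shared with that gene. The other kinases that phosphorylate the same initiation factor, which answer to haem (Eif2ak1), endoplasmic reticulum stress (Eif2ak3) and amino acid shortage (Eif2ak4), had log2 fold changes of 0.11 (limma adjusted p = 0.0596), 0.24 (limma adjusted p = 0.0141) and -0.28 (limma adjusted p = 0.00536), those of Eif2ak1 and Eif2ak3 turning to -0.82 and -0.67 when the libraries were scaled by 4 Y-linked genes, under which the median over all tested genes was -0.83. Eif2ak2 was 3.89 ± 0.154 times the level of Eif2ak1 in PBS libraries and 1.39 ± 0.032 times in cisplatin libraries.

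Mx1 (ENSMUSG00000000386, chromosome 16, 97447035 to 97462907, minus strand) encodes a nuclear GTPase active against influenza viruses. It stood at 21.4, 21.8 and 19.5 FPKM with PBS and at 8.02, 7.96 and 8.54 FPKM with cisplatin. The ratio of means was 2.55 (log2 fold change -1.25, SE 0.056), the smallest of the 10 genes. Mx2 (ENSMUSG00000023341, chromosome 16, 97535308 to 97560900, plus strand) encodes the cytoplasmic counterpart and is listed in the table as a polymorphic pseudogene. C57BL/6 and many other laboratory strains carry Mx alleles that make no working protein, so these values are of transcripts alone. Mx2 stood at 17.6, 18.2 and 16.6 FPKM with PBS and 4.38, 3.74 and 4.10 FPKM with cisplatin, a ratio of 4.29 (log2 fold change -1.87, SE 0.064). Mx1 was thus 1.19 ± 0.019 times the level of Mx2 in PBS libraries and 2.01 ± 0.16 times in cisplatin libraries, with no overlap. The nearest tested genes outside the pair were Itgb2l, 1003416 bases from Mx1, which was called higher (log2 fold change 1.78, limma adjusted p = 4.48e-06), and Prdm15, 230567 bases from Mx2, which did not pass the test (0.16, limma adjusted p = 0.165).

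Bst2 (ENSMUSG00000046718, chromosome 8, 71534255 to 71537456, minus strand) was the most abundant of the set in all 6 libraries. It stood at 417.8, 357.3 and 404.6 FPKM with PBS and 103.3, 114.8 and 116.5 FPKM with cisplatin. The spread in PBS was 8.08% against 1.31% from counting, with replicate 2 the lowest, and the groups lay far apart. The PBS mean of 393 ± 31.8 FPKM was 3.53 times the cisplatin mean of 112 ± 7.17 FPKM (log2 fold change -1.81, SE 0.072). Its tested neighbours were Plvap, 22503 bases away, which was called lower (-2.11, limma adjusted p = 2.94e-05), and Mvb12a, 5466 bases away, at -0.57 (limma adjusted p = 0.000365). Plvap stood at 0.148, 0.398 and 0.122 FPKM with cisplatin. It passed the filter through its PBS libraries alone, so its call is a description.

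The order of levels in PBS was Bst2, Ifit3, Ifit1, Rsad2, Ifit2, Ifit3b, Eif2ak2, Cmpk2, Mx1 and Mx2, and no neighbours in it overlapped between libraries. In the cisplatin libraries the order was Bst2, Eif2ak2, Ifit3, Rsad2, Ifit1, Cmpk2, Ifit2, Mx1, Mx2 and Ifit3b. There Eif2ak2 overlapped Ifit3, Ifit3 overlapped Rsad2, and Ifit2 overlapped Mx1. Eif2ak2 thus moved from the seventh place to the second and Ifit3b from the sixth to the last. By size of the fold change, the 95% intervals of neighbours overlapped for Ifit3b and Ifit3, for Ifit2 and Ifit1, for Mx2, Bst2 and Cmpk2 in turn, and for Eif2ak2 and Mx1. The 4 IFIT genes lay past Rsad2, and Rsad2 past the other 5, with no overlap of intervals. Ranked among all 13441 tested genes from the lowest fold change, Ifit3b was number 17, Ifit3 19, Ifit2 33, Ifit1 34 and Rsad2 94, while the other 5 ranked from 478 (Mx2) to 1076 (Mx1).

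**Figure D2:**
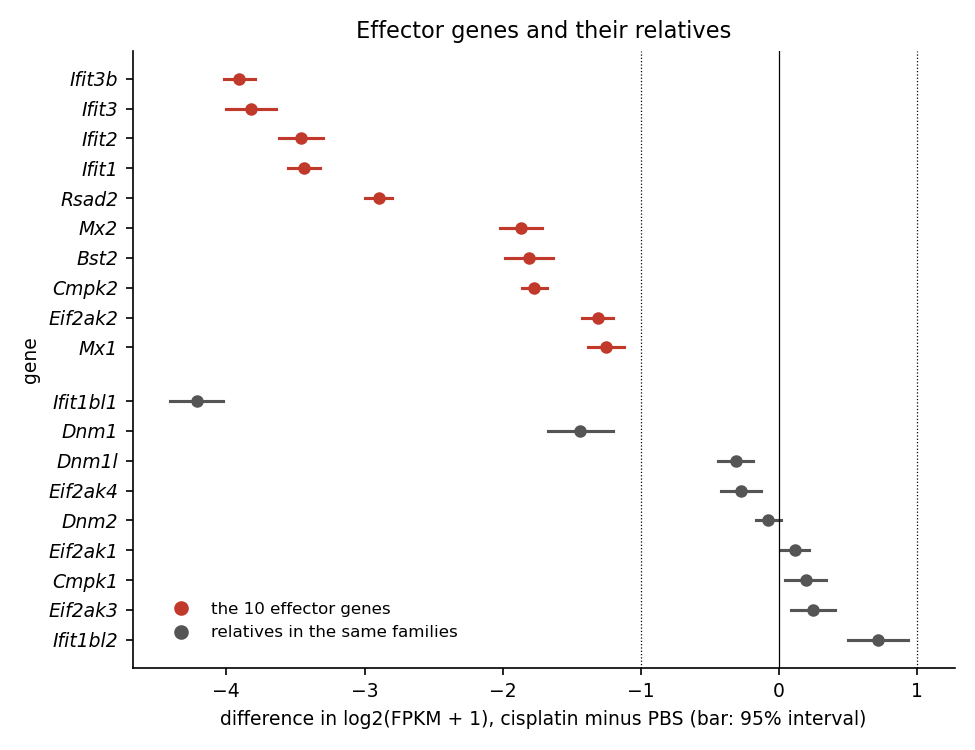
Difference in log2(FPKM + 1), cisplatin minus PBS, with 95% intervals, for the 10 effector genes (red) and 9 tested relatives of the same families (grey). Dotted lines mark a difference of 1 in size. The red points run from -3.90 (Ifit3b) to -1.25 (Mx1), while the grey ones run from -4.21 (Ifit1bl1) to 0.71 (Ifit1bl2, which is at -0.048 under scaling by Y-linked genes).

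Summed per library as transcripts per 1000000 (TPM), the 10 genes made up 4198 ± 15.1 TPM in PBS libraries (4189 to 4216) and 720 ± 20.1 TPM in cisplatin libraries (697 to 735, SD, n = 3 each). That is 1 transcript in 238 with PBS and 1 in 1391 with cisplatin. Behind these sums lay 45687 to 51537 reads per PBS library and 7849 to 8133 per cisplatin library. The makeup of the sum also differed. The 4 IFIT genes held 47.6% ± 1.69 of it with PBS and 20.4% ± 0.809 with cisplatin, while Bst2 held 31.3% ± 2.28 and 51.5% ± 1.98. Bst2 stood at 1.35 to 1.65 times the level of Ifit3 in the PBS libraries and at 5.78 to 7.24 times in the cisplatin libraries. Ifit1 and Ifit2 kept ratios that overlapped between groups, at 1.61 ± 0.058 with PBS and 1.70 ± 0.144 with cisplatin.

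**Figure D3:**
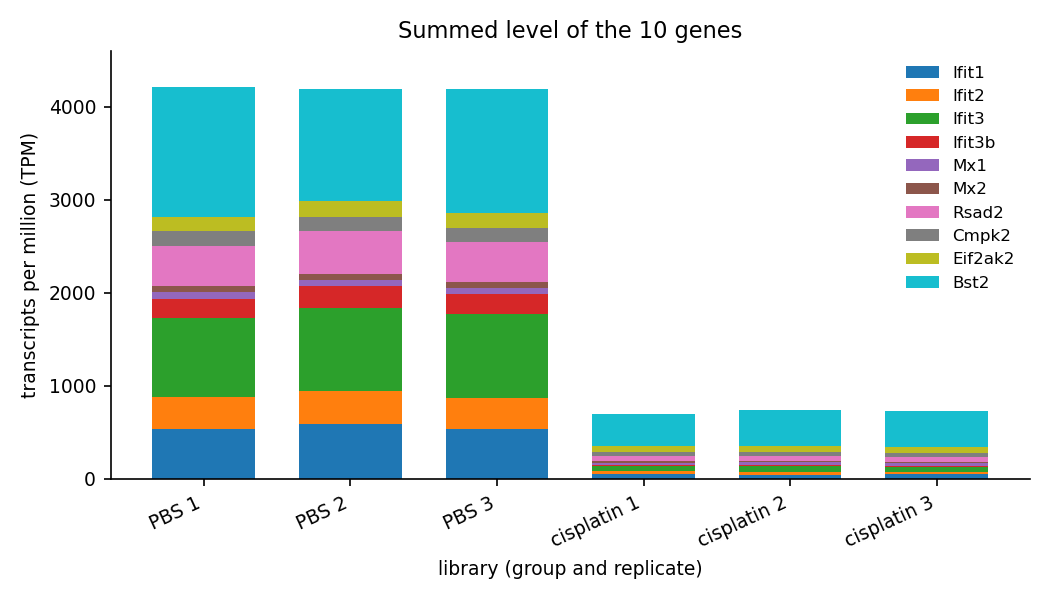
Summed level of the 10 genes in each library, in transcripts per 1000000 (TPM), with a coloured block per gene. The PBS bars reach 4189 to 4216 and the cisplatin bars 697 to 735, and Bst2 is the largest block in each.

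The IFIT genes form a cluster of 99316 bases on chromosome 19, from Ifit2 to Ifit1. The table lists 12 genes from Lipa on the left to Pank1 on the right, of which 8 were tested and 2 had no read in any library. Within the cluster Ifit1bl1, an Ifit1-like gene on the minus strand, went down from 106 ± 4.15 to 4.76 ± 0.643 FPKM (log2 fold change -4.21, limma adjusted p = 8.18e-08), a ratio of 22.2 that lies past those of the 10 genes. Its neighbour Ifit1bl2, also on the minus strand, went the other way, from 2.15, 2.54 and 2.36 FPKM in the PBS libraries to 4.78, 3.91 and 4.80 FPKM in the cisplatin libraries. All 3 cisplatin values were higher, and the difference passed the adjusted p (log2 fold change 0.71, SE 0.091, limma adjusted p = 0.000385) but not the fold threshold. Its direction turned under the scaling by Y-linked genes (-0.048). Outside the cluster, Lipa, which encodes lysosomal acid lipase, had a log2 fold change of 0.41 and Pank1, a pantothenate kinase gene, one of -0.55.

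**Figure D4:**
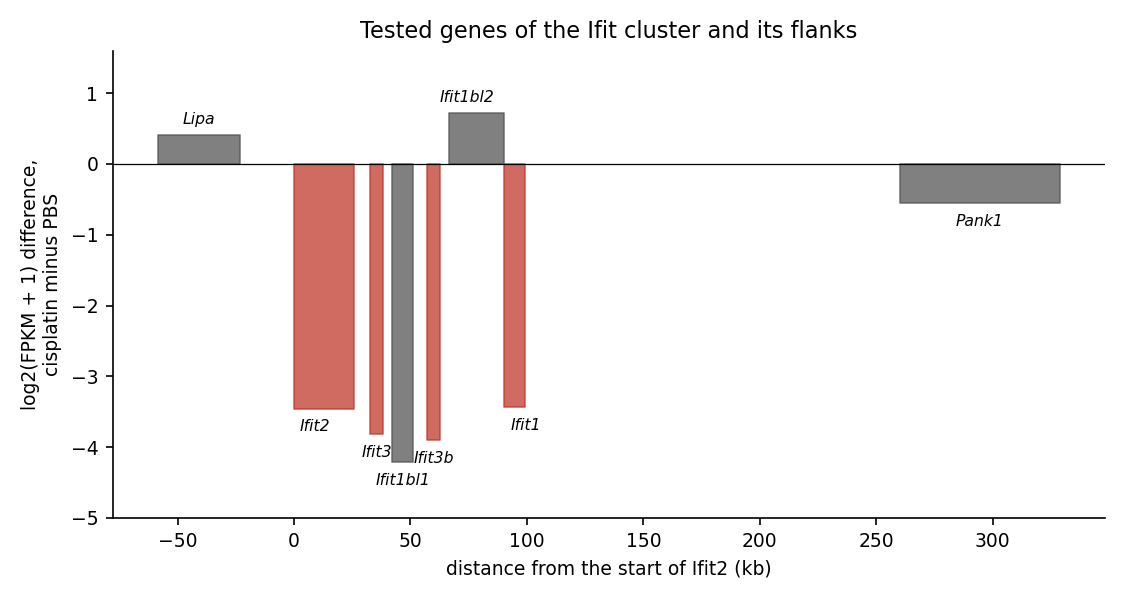
Difference in log2(FPKM + 1), cisplatin minus PBS, of the 8 tested genes from Lipa to Pank1, each drawn from gene start to gene end as distance from the start of Ifit2 in kilobases. The 4 IFIT genes described are red and the others grey. Between Ifit2 and Ifit1, all tested genes but Ifit1bl2 (0.71, or -0.048 under scaling by Y-linked genes) lie below -3.

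Ifit1bl2 starts 128 bases from Ifit1 and is read in the opposite direction, so the Ifit1 stretch printed above lies between them. Read from the side of Ifit1bl2, at its RefSeq start at base 34640743, the same letters are the matches GAAACTGAAA and GAAAGTGAAA, at 61 to 70 and 42 to 51 bases before its start. The 2 genes thus share both matches (34640785 to 34640794 and 34640804 to 34640813). The window of a second RefSeq start of Ifit1bl2, at base 34629811, held none. The ratio of Ifit1 to Ifit1bl2 in FPKM was 70.7 ± 3.09 in PBS libraries and 3.21 ± 0.273 in cisplatin libraries. Ifit1bl1 has 2 RefSeq starts, and each of their windows held 1 match, at different places, with the letters found in Rsad2 (TTTCATTTTC).

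Of 11 relatives of the 10 genes listed, 10 were matched and 9 tested. Ifit1bl1 and Dnm1, a neuronal dynamin gene, were called lower and none was called higher. The median log2 fold change was -0.078. Dnm1 went from 2.44 ± 0.212 to 0.267 ± 0.068 FPKM (log2 fold change -1.44, limma adjusted p = 1.7e-05), on 20 to 30 reads in the cisplatin libraries. With cisplatin values of 0.224, 0.232 and 0.346 FPKM, it passed the filter through its PBS libraries alone, so its call is a description. The size of its fold change depended on the scale, and it was -2.80 at a pseudocount of 0.1, -2.28 with TPM rescaling and -3.11 with voom. The other dynamins tested were Dnm2, which drives endocytosis (-0.078, limma adjusted p = 0.102), and Dnm1l, which divides mitochondria (-0.31, limma adjusted p = 0.00154). Cmpk1, the cytosolic counterpart of Cmpk2, had a log2 fold change of 0.19 (limma adjusted p = 0.0277), which turned to -0.78 under the scaling by Y-linked genes. Cmpk2 stood at 1.31 ± 0.085 times the level of Cmpk1 in PBS libraries and at 0.316 ± 0.020 times in cisplatin libraries. The promoter of Cmpk1 held 2 ISRE matches, while that of Cmpk2 held none.

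Other genes of the pathway were taken from lists by role. Of 20 interferon genes none reached the filter. Their reads together came to between 8 and 17 per cisplatin library and between 9 and 16 per PBS library, and the most for any of them were 9 reads, of Ifnb1. Named after their values were seen are the 3 ligand genes whose groups did not overlap. Ifnb1 had 0, 3 and 2 reads in the cisplatin libraries and 9, 4 and 5 in the PBS libraries, and Ifna5 had 0 in each cisplatin library and 1, 2 and 1 with PBS. Ifng had 5, 6 and 5 reads with cisplatin and 0, 2 and 2 with PBS. These counts were too low to be tested in the fit, and no difference is called from them. Of 12 receptor and signalling genes, 2 were called lower and none higher, with a median log2 fold change of -0.30. Stat2, a subunit of the complex that binds the ISRE, fell from 73.8 ± 1.78 to 18.8 ± 0.651 FPKM (log2 fold change -1.92, limma adjusted p = 1.01e-07). Irf9, its DNA-binding partner, went from 23.0 ± 1.30 to 19.3 ± 0.694 FPKM, a log2 fold change of -0.24 that passed the adjusted p (limma, 0.00577) but not the fold threshold, which it passed under the scaling by Y-linked genes (-1.19). The receptor genes Ifnar1 and Ifnar2 overlapped between groups. Ifnar1 stood at 33.2 ± 1.23 FPKM with PBS and 32.7 ± 1.14 with cisplatin (95% interval of the log2 fold change -0.13 to 0.079, limma adjusted p = 0.638). Ifnar2 stood at 26.7 ± 0.947 and 26.3 ± 1.65 FPKM (interval -0.15 to 0.11, limma adjusted p = 0.707). Under the scaling by Y-linked genes they were at -0.99 (Ifnar1) and -0.99 (Ifnar2), with limma adjusted p = 1.47e-06 and 9.56e-06, beside the median of -0.83 over all tested genes.

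Of 8 inhibitors 1 was called lower and none higher, with a median of 0.012. It was Usp18, which removes ISG15 from proteins and blocks the receptor, and it fell from 66.1 ± 0.859 to 15.9 ± 0.412 FPKM (log2 fold change -1.99, limma adjusted p = 6.7e-08). Of 17 sensors and inducing factors, 6 were called lower and 1 higher, with a median of -0.37. Irf7, the factor that amplifies interferon genes, fell from 102 ± 5.38 to 16.1 ± 0.324 FPKM (-2.59, limma adjusted p = 7.06e-08), the RNA sensor gene Ifih1 from 26.4 ± 0.844 to 4.62 ± 0.398 FPKM (-2.29, limma adjusted p = 2.38e-07), and Tlr3 from 7.18 ± 0.722 to 0.905 ± 0.194 FPKM (-2.10, limma adjusted p = 3.36e-06). Tlr3, at 1.12, 0.737 and 0.861 FPKM with cisplatin, passed the filter only through its PBS libraries, so its call is a description. The sensor called higher was Tlr7, named after its value was seen (log2 fold change 1.47). No sensor was called higher under the scaling by Y-linked genes, where 85 of the 13441 tested genes were.

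Of 33 other effectors, 32 were matched and 31 tested, and 20 of them were called lower and none higher, with a median of -1.25. Ifi44 fell from 55.7 ± 1.66 to 2.13 ± 0.446 FPKM (log2 fold change -4.19, limma adjusted p = 1.84e-07). Isg15, a ubiquitin-like modifier, fell from 336 ± 31.1 to 35.5 ± 0.872 FPKM (-3.20, limma adjusted p = 1.05e-07). Oasl2, of the oligoadenylate synthetase family, fell from 122 ± 4.33 to 17.0 ± 0.746 FPKM (-2.77, limma adjusted p = 6.04e-08). These lists were drawn up with earlier results of these data known, and their counts stand beside the 11.3% of all tested genes that were called lower.

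**Figure D5:**
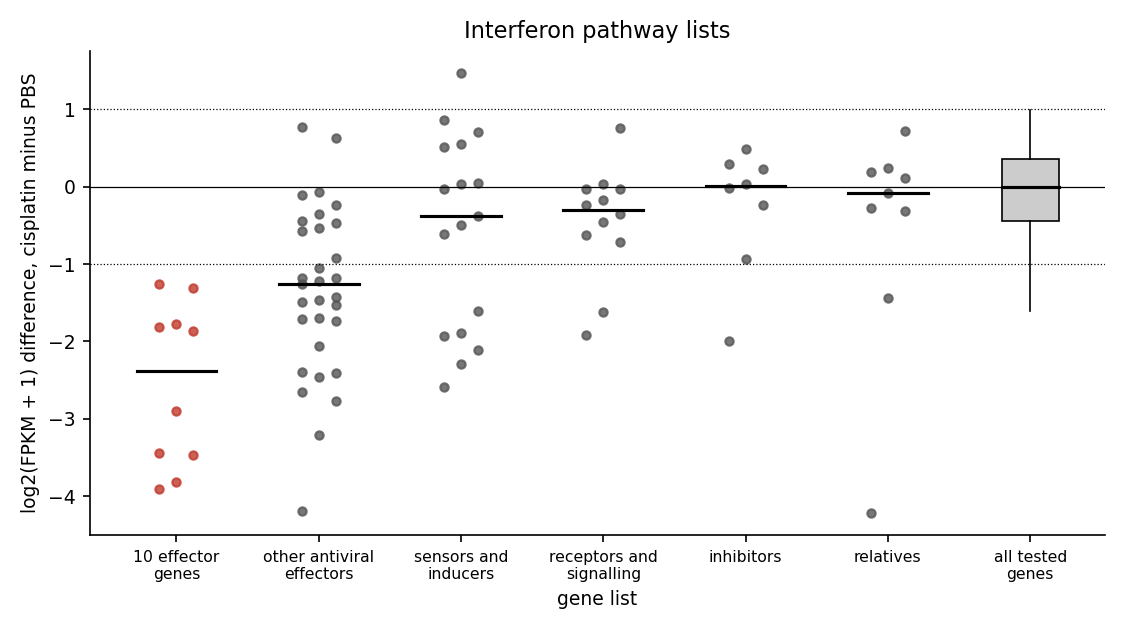
Difference in log2(FPKM + 1), cisplatin minus PBS, of every tested gene in each list, with a point per gene and a bar at the list's median. The box shows all 13441 tested genes (line at the median, box at the quartiles, whiskers from the 5th to the 95th percentile), and the medians are -2.38 for the 10 effector genes, -1.25 for other effectors and -0.0011 for all tested genes.

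Over the 6 libraries, the genes outside the set whose centred log2(FPKM + 1) profile lay closest to the mean profile of the 10 were Hspa12a (root-mean-square difference 0.0090), Kank1 (0.032), Irgm2 (0.040), Ano1 (0.044) and Ptgfrn (0.044). The 10 genes themselves lay 0.175 to 0.676 from that mean profile, which spans 2.55. The 6 points fall into 2 groups, so a gene with a like difference between the groups lies close, and no function is read from it. Irgm2, an interferon-inducible GTPase gene, went from 83.7 ± 3.66 to 13.0 ± 0.426 FPKM, and Hspa12a from 19.7 ± 0.21 to 2.51 ± 0.023 FPKM.

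Markers of other cells moved in the same comparison. The RNA was taken after co-culture and no sort is stated, and in such bulk RNA fewer cells of a type and less RNA per cell cannot be told apart. Of 16 markers of ID8 and related epithelial cells, 11 were tested and 8 were called lower and none higher, with a median log2 fold change of -2.07. Without the filter the median over all 16 markers was -0.94, with 4 above 0, and under the scaling by Y-linked genes that of the 11 was -3.04. Their summed level was 1313 to 1415 FPKM in PBS libraries and 250 to 270 FPKM in cisplatin libraries. Krt19, a keratin gene, stood at 588 ± 28.8 FPKM with PBS and 51.1 ± 3.80 with cisplatin, a ratio of 11.5, and Wt1 at 37.8 ± 1.15 and 3.41 ± 0.169, a ratio of 11.1. These ratios lie within the range of those of the 10 effector genes, 2.55 to 18.9. All 12 macrophage markers had a higher mean with cisplatin, and 5 of them were called, with a median of 0.90, but only 6 stayed above 0 under the scaling by Y-linked genes. Among those called, Mertk (0.430, 0.311 and 0.134 FPKM with PBS) passed the filter through its cisplatin libraries alone, so its call is a description. Whether macrophages, ID8 cells or both carried the transcripts of the 10 genes was not tested, and the part of these markers in the result was not tested.

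Another 4 lists covered other cell types. Of 6 fibroblast markers 3 were tested and 1 was called lower (summed level 114 to 124 FPKM with PBS and 49.8 to 59.1 with cisplatin). Of 7 neutrophil markers, all tested, 3 were called higher (4597 to 4750 FPKM and 8055 to 8315), and 3 of the 7 stayed above 0 under the scaling by Y-linked genes, where all 7 had been. Of 10 lymphocyte markers 4 were tested and 3 called higher (110 to 117 and 264 to 270). Of 6 markers of plasmacytoid dendritic cells, which also carry BST2, 5 were tested and 2 called higher (145 to 149 and 244 to 259), with a median of 0.79. That median ran from 0.40 under the scaling by Y-linked genes to 2.28 with voom. Of the lymphocyte markers tested, 3 of 4 stayed above 0 under the scaling by Y-linked genes. Most of the summed level of the plasmacytoid list was Ly6d, which was not called (139 FPKM with PBS and 229 with cisplatin). The genes called were Siglech (1.69 and 9.70 FPKM) and Ccr9 (0.617 and 4.22). Ccr9 passed the filter through its cisplatin libraries alone, so its call is a description. No marker was at 0 in all libraries, and the part of these lists in the result was not tested.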

How the data were processed

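The deposited table holds FPKM per gene. The authors' methods name read filtering, LifeScope for alignment and gene counts, and DESeq2 for the tests. The submitters' processing notes instead name fastp, HISAT2 2.0.5, featureCounts 1.5.0-p3 and mm10. Whether counting used strand is not given in the sources used here. Whole reads were recovered from FPKM and gene length: 100% of values under 200 reads came out whole (tolerance 0.02), so counting error is known.

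The 13441 genes that reached 1 FPKM in 3 or more of the 6 libraries were tested in limma 3.58.1 under R 4.3.3 on log2(FPKM + 1), with group as the only term, eBayes with a trend and Benjamini-Hochberg adjustment over all of them. A call needed an adjusted p below 0.05 with a log2 fold change that reached 1 in size. Fold changes are cisplatin against PBS. The procedure was tested on simulated data. Intervals are 95% intervals of the fit. TPM were computed from the FPKM. In the scaling by 4 Y-linked genes, the FPKM of each library were divided by the geometric mean of those genes. A fold change under it is thus relative to them, and whether they are a steady reference was not tested. Groups come from the sample labels, and the labels give both groups the replicate numbers 1 to 3.

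The 10 genes and all lists were chosen with earlier results of these data known. Named beside them were all tested relatives, in each pathway list the 3 called genes with the largest change plus Stat2, Irf9, Irf7, Usp18, Ifnar1 and Ifnar2, and the 5 genes most alike in profile. A gene of this rule is not reported here, and the symbols Gm14446 and Shfl were not matched. Promoter sequences and starts are from RefSeq (GRCm38.p6), and transcripts for the shared stretches are from GENCODE M21 (GRCm38).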

Additional observations from a re-analysis of the deposited data

How the results depend on the processing

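The 10 effector genes were chosen for being lower, so their calls, 10 of 10 under each of 16 alternatives, are no sign of stability. Their median log2 fold change was -2.52 at a pseudocount of 0.1, -2.37 with median-of-ratios scaling, -2.49 with TPM rescaling, -2.34 with quantile normalisation, -2.45 with limma voom on recovered reads and -3.33 with scaling by 4 Y-linked genes, where the median of all tested genes was -0.83. Leaving out each library in turn gave -2.40 to -2.37. The share of transcripts among protein-coding genes alone was 0.0799% with cisplatin and 0.456% with PBS.

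The adjusted p alone gave 8 receptor and signalling genes lower and 1 higher, 3 inhibitors lower and 2 higher, 9 sensors lower and 5 higher, 27 other effectors lower and 2 higher, and 4 relatives lower and 3 higher. Scaling by Y-linked genes gave 8 receptor and signalling genes, 3 inhibitors, 9 sensors, 29 other effectors and 5 relatives lower, and 0 sensors higher. These counts stand beside a shifted background, since 5181 of the 13441 tested genes were then called lower and 85 higher. Without that scaling 1514 were called lower and 628 higher. A filter at FPKM 5 left 1 relative lower, and voom called 1 relative higher (Ifit1bl2, 1.03). Signs turned for Cmpk1 (-0.78), Eif2ak1 (-0.82), Eif2ak3 (-0.67) and Ifit1bl2 (-0.048) with Y-linked scaling, and for Dnm2 (0.0073) with voom. Ifnar1 turned to 0.049 with quantile normalisation, 0.063 with voom, and ran from -0.052 to 0.0048 with each library left out (above 0 without PBS replicate 2). Ifnar2 turned to 0.027 and 0.060 under these, and ran from -0.070 to 0.017 with each library left out (above 0 without cisplatin replicate 3 and, at 0.0018, without PBS replicate 1). With Y-linked scaling Irf9 (-1.19), Eif2ak4 (-1.12), Dnm1l (-1.27) and Dnm2 (-1.05) passed the fold threshold, and Ifnar1 and Ifnar2 were both at -0.99, with an adjusted p under 0.05 but short of it. The causes were not tested.

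Same-numbered libraries did not deviate together (r of -0.10, -0.086 and -0.024), so the numbers were not taken as pairs. A replicate block gave 1515 genes called lower and 625 higher, against 1514 and 628 without it. The median of the 10 effector genes was -2.38 in both. In cisplatin libraries Ifit3b rests on 116 to 120 reads, the fewest of the 10 genes.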
